A study of Mus musculus with 6 samples.

Results

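The genes described here encode the MHC class II antigen presentation machinery, measured in whole liver of wild-type mice and of mice lacking Nrg4, which encodes the secreted ErbB ligand neuregulin 4. They are the 6 genes H2-Aa, H2-Ab1, H2-Eb1, H2-DMa, Cd74 and Ciita, chosen by name, and their data are all 13 probe sets annotated to exactly 1 of these symbols, of 45141 probe sets and 17097 named genes on the array. Every animal is labelled C57BL/6, ate high-fat food for 8 weeks from 3 months of age, and was fed at random when the liver was taken, so that the genotype, wild type or Nrg4 knockout, is the labelled difference. There were 3 arrays per genotype, each hybridised with RNA from a separate pool. The sources used here do not give how many mice made up a pool or how Nrg4 was disrupted. A p-value therefore describes the spread between pools.

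MHC class II molecules are pairs of an alpha and a beta chain that show peptides from endocytosed protein to CD4+ T cells. In the endoplasmic reticulum the pair binds the invariant chain, product of Cd74, which is cut down in lysosomal compartments to a short peptide that the H2-DM heterodimer exchanges for antigen. Transcription of these genes depends on the transactivator CIITA, which binds no DNA itself and acts through factors bound to the X and Y boxes of the promoters. In liver, class II is carried mainly by Kupffer cells, dendritic cells and B cells and at a lower level by sinusoidal endothelium, and hepatocytes make little of it. In whole liver RNA, fewer cells of a type and less RNA per cell cannot be told apart.

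The arrays carried their labels: Nrg4 read 4.94, 4.79 and 4.77 in wild type and 2.56, 2.43 and 2.64 in the knockout, as deposited log2 values (limma adjusted p = 4.76e-05); the labels do not say whether its probes fall inside the deletion. Hepatocyte markers were bright on every array, with Alb at 12.30 to 12.41. Of 12466 genes above the limit for dim signal, a log2 value of 2.66, 63.4% had a higher mean in the knockout, and the median log2 change was 0.045. Counts of higher genes below are thus not to be read against an even split. Levels of different probe sets are not compared, since each has its own binding strength.

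No difference between the genotypes was called for the class II genes. Of the 6, 5 were above the limit and could be tested, 0 of the 5 passed at a limma adjusted p under 0.05, and 0 of the 5 had an unadjusted p under 0.05. Over all genes tested, 0.0401% passed and 9.55% had an unadjusted p under 0.05. Of their 10 probe sets above the limit, 0 passed and 0 had an unadjusted p under 0.05, against 0.0481% and 9.5% of every probe set tested on its own. In each of the 5 genes the values of wild type and knockout overlapped. Over all genes tested they were separate in 15.6%, a share at which 0 of 5 does not set the class II genes apart.

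H2-Aa encodes the alpha chain of I-A, the class II molecule that C57BL/6 mice express at the cell surface. Its brightest probe set read 8.04, 7.54 and 7.51 in wild type and 7.35, 7.39 and 8.12 in the knockout. Knockout replicate 3 and wild-type replicate 1 were high and the other 4 arrays were low, so the genotypes overlapped. The means were 7.70 ± 0.30 and 7.62 ± 0.43 (SD, n = 3), a log2 change of -0.08 (SE 0.22, limma adjusted p = 0.937). The 95% confidence interval of the fold ran from 0.667 to 1.35. The other probe sets of H2-Aa gave changes of 0.21 (SE 0.21) and 0.36 (SE 0.33), and in both the highest array was again knockout replicate 3, at 5.54 and 3.87.

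H2-Ab1 encodes the beta chain that pairs with it. Its brightest probe set read 5.62, 5.12 and 5.12 in wild type and 5.69, 5.26 and 6.07 in the knockout. Knockout replicates 1 and 3 were above the highest wild-type array and knockout replicate 2 was among the wild-type values. The log2 change was 0.38 (SE 0.21, limma adjusted p = 0.597), or 1.3-fold, with an interval of 0.932 to 1.82. The other probe sets stood at 0.14 (SE 0.20) and -0.06 (SE 0.19).

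H2-Eb1 encodes the beta chain of I-E. It had a single probe set, with 6.53, 6.56 and 6.51 in wild type and 6.75, 6.55 and 7.27 in the knockout. The wild-type pools lay within 0.05 of each other, while the knockout pools spread over 0.71. The log2 change was 0.32 (SE 0.17, limma adjusted p = 0.57), or 1.25-fold, with an interval of 0.964 to 1.62. The I-E alpha chain gene, H2-Ea, is known not to be transcribed in C57BL/6 mice, which therefore carry no I-E on their cells. Of its 3 probe sets, 2 were dim on all arrays, between 1.81 and 2.22, and the third read 5.51, 5.38 and 5.43 in wild type and 5.58, 5.34 and 5.01 in the knockout. On that probe set knockout replicate 3 was the lowest array.

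**Figure D1:**
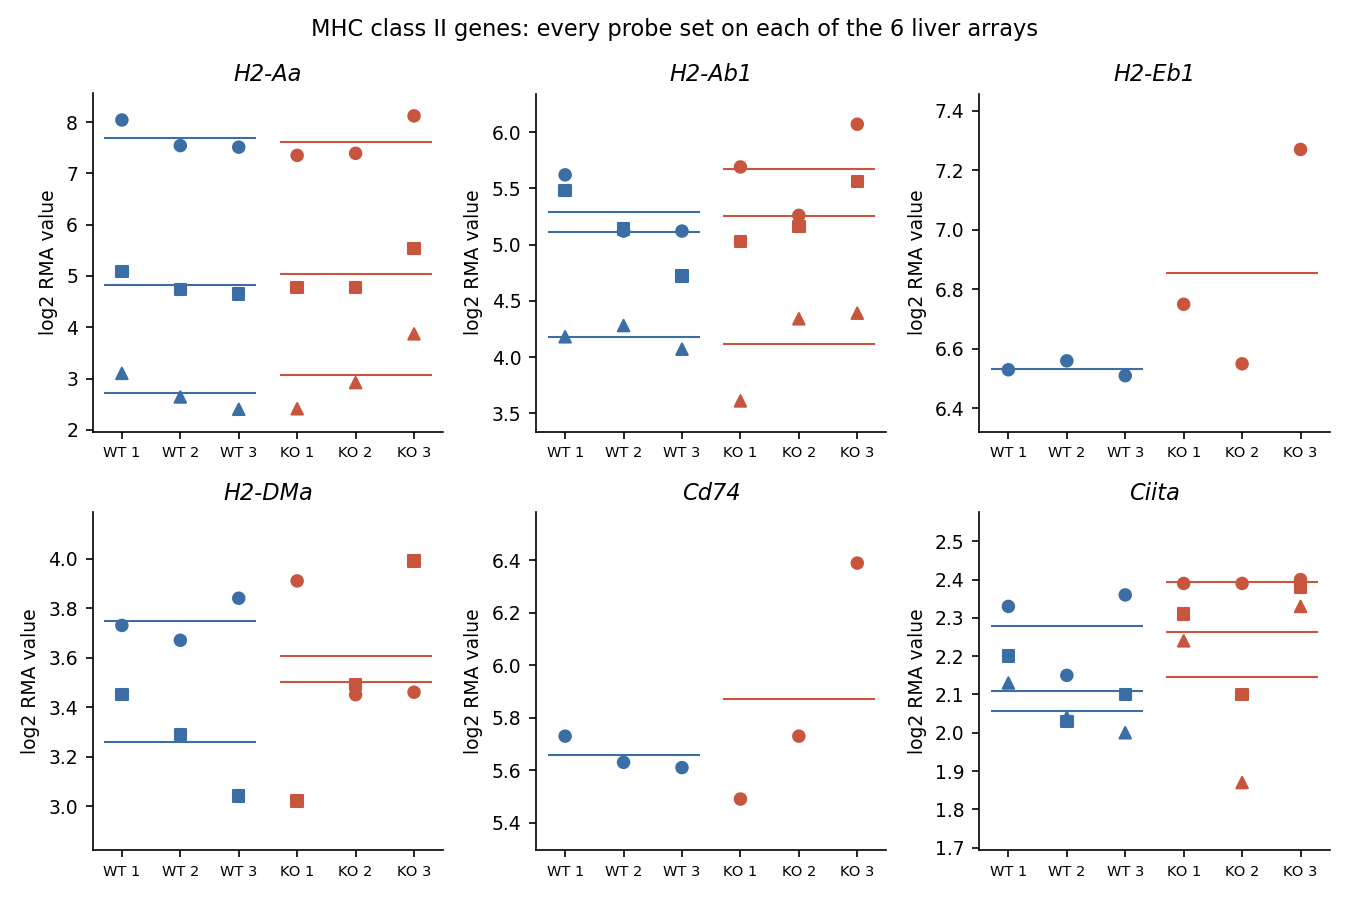
The deposited log2 value (vertical axis, a separate scale for each gene) of every probe set of the 6 class II genes on each array (horizontal axis). Blue stands for wild type, red for the knockout, each marker shape for 1 probe set of that gene and each line for the mean of 3 arrays. Knockout replicate 3 is the highest array in 12 of the 13 probe sets, the exception being the brightest probe set of H2-DMa, and Ciita lies below the limit for dim signal, 2.66, throughout.

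Cd74 encodes the invariant chain, the chaperone of class II chains. Its probe set read 5.73, 5.63 and 5.61 in wild type and 5.49, 5.73 and 6.39 in the knockout. Knockout replicate 3 stood alone at the top, knockout replicate 1 was the lowest of the 6, and the wild-type pools lay within 0.13. The log2 change was 0.21 (SE 0.20, limma adjusted p = 0.774), with an interval of the fold from 0.844 to 1.59.

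H2-DMa encodes the alpha chain of the peptide exchange factor H2-DM, and its probe sets disagreed. The brightest read 3.73, 3.67 and 3.84 in wild type and 3.91, 3.45 and 3.46 in the knockout, a log2 change of -0.14 (SE 0.14, limma adjusted p = 0.777). The other read 3.45, 3.29 and 3.04 in wild type and 3.02, 3.49 and 3.99 in the knockout, a change of 0.24 (SE 0.22). Knockout replicate 1 was the highest array on the first and the lowest on the second, and knockout replicate 3 was the highest on the second. The first carries the suffix x, with which Affymetrix marks probe sets whose probes can also match other transcripts. The brightest probe set of H2-Aa, 1 other of that gene and 1 of H2-Ab1 carry it too, and knockout replicate 3 was the highest array on each of these.

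Ciita encodes the transactivator, and each of its 3 probe sets was below the limit for dim signal, so the gene was not among those tested. The brightest read 2.33, 2.15 and 2.36 in wild type and 2.39, 2.39 and 2.40 in the knockout, with no overlap but a difference of 0.11. With no filter on dim genes its log2 change was 0.11 (SE 0.09, limma adjusted p = 0.77). The other probe sets differed by 0.15 and 0.08 and their genotypes overlapped. At this signal a change in Ciita was not detectable.

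RefSeq promoters in assembly GRCm38.p6 were at hand for H2-Aa, H2-Eb1 and H2-DMa among the 6 genes, and are shown because H2-Aa and H2-Eb1 shared their highest array and CIITA acts at these boxes. The 150 bases before the start of each gene are printed 5′ to 3′ for H2-Aa (chr17:34287824-34287973 on the minus strand), H2-Eb1 (chr17:34305717-34305866 on the plus strand) and H2-DMa (chr17:34122682-34122831 on the plus strand). H2-DMb1 (chr17:34153041-34153190 on the plus strand), whose product pairs with that of H2-DMa, stands beside them. Capitals mark matches on either strand to a form of the X box, spelled AGNNAC and then NGATG without a gap, and to the Y box, ATTGG, which reads CCAAT on the opposite strand.
H2-Aa: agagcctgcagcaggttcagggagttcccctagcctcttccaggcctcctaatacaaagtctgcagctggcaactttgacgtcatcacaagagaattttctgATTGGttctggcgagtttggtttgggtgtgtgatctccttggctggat
H2-Eb1: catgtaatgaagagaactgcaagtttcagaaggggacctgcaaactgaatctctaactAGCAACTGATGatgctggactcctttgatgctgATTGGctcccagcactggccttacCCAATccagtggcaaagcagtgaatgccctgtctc
H2-DMa: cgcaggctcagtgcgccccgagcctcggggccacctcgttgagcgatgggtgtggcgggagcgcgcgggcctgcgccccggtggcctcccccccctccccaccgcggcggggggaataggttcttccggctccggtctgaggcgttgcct
H2-DMb1: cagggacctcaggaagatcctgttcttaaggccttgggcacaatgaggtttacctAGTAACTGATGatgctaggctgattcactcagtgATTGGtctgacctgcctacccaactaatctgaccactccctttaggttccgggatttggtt

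H2-Eb1 held the X box match, agcaac and then tgatg, from 92 bases before its start and a Y box from 59 bases before it, with 22 bases between them. H2-DMb1 held an X box match from 95 bases before its start and a Y box 23 bases further on. H2-Eb2, another beta chain gene of the locus, held the same X box letters as H2-Eb1 and a Y box after 22 bases. In windows of 300 bases from 250 before to 50 after the start, 0.968% of 32851 RefSeq promoters held this X box form and 37.4% a Y box. On the strand of the gene, an X box followed by a Y box after 22 or 23 bases occurred in 3 promoters, those of H2-Eb1, H2-Eb2 and H2-DMb1. This spacing was chosen after the matches were seen, and pairs on the opposite strand were not counted. H2-Oa, of the same locus, also held an X box match, with its Y box 87 bases further on. H2-Aa held a Y box from 48 bases before its start and no match to this X box form. The window at the start of H2-DMa held neither, and a second RefSeq start of that gene had a Y box. A match to the interferon response motif GAS, TTCNNNGAA, was found in 8.3% of promoters and in none of the windows of these 3 members. A match is a description of letters and not evidence of binding.

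The class II genes differed widely between pools of one genotype. Within genotypes the residual SD was 0.37 for H2-Aa, 0.35 for H2-Ab1, 0.33 for Cd74 and 0.26 for H2-Eb1, against a median of 0.13 over all genes tested. It was larger than in 98.1%, 97.6%, 96.9% and 92.2% of the genes tested. For H2-DMa it was 0.20, larger than in 79.4%.

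Knockout replicate 3, singled out after the values were seen, had the highest signal of the 6 arrays in 4 of the 5 class II genes tested and in 9 of their 10 probe sets above the limit. Over all genes tested it was the highest array in 27.8%, and over all probe sets above the limit in 24.6%. Probe sets of 1 gene share their target and are not separate evidence. In the 9 probe sets its value lay 0.41 to 1.21 above the mean of the other knockout pools on the log2 scale, or 1.33- to 2.31-fold. That these distances are positive follows from the selection, since knockout replicate 3 was the highest array in each of the 9. The largest, 1.21, was on a probe set of H2-Aa with a mean of 2.89, close to the limit for dim signal. On that probe set knockout replicate 1 read 2.41 and wild-type replicate 3 read 2.4, both below the limit. By gene, on the brightest probe set, the distance was 0.78 for Cd74, 0.75 for H2-Aa, 0.61 for H2-Eb1 and 0.60 for H2-Ab1. For H2-DMa, whose brightest probe set is not among the 9, it was -0.23. Among wild-type arrays, replicate 1 was the highest in 7 of the 10 probe sets and in 41.6% of all genes.

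Leaving out knockout replicate 3 moved the class II differences down, except that of H2-DMa. The direction follows from the selection, since this array held the highest value of each of the other genes. The log2 change became 0.12 (SE 0.10) for H2-Eb1, 0.18 (SE 0.19) for H2-Ab1, -0.05 (SE 0.11) for Cd74 and -0.33 (SE 0.17) for H2-Aa, and -0.07 (SE 0.15) for H2-DMa, with limma adjusted p-values between 0.895 and 0.986. Leaving out knockout replicate 2, whose class II values were low, moved H2-Ab1 to 0.59 and H2-Eb1 to 0.47. Without wild-type replicate 1 H2-Aa stood at 0.10 and H2-Ab1 at 0.55, and without knockout replicate 1 Cd74 stood at 0.40 and H2-DMa at -0.30. With any single array left out, 0 of the 5 genes passed the limma test, at adjusted p-values of 0.201 to 0.986.

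**Figure D2:**
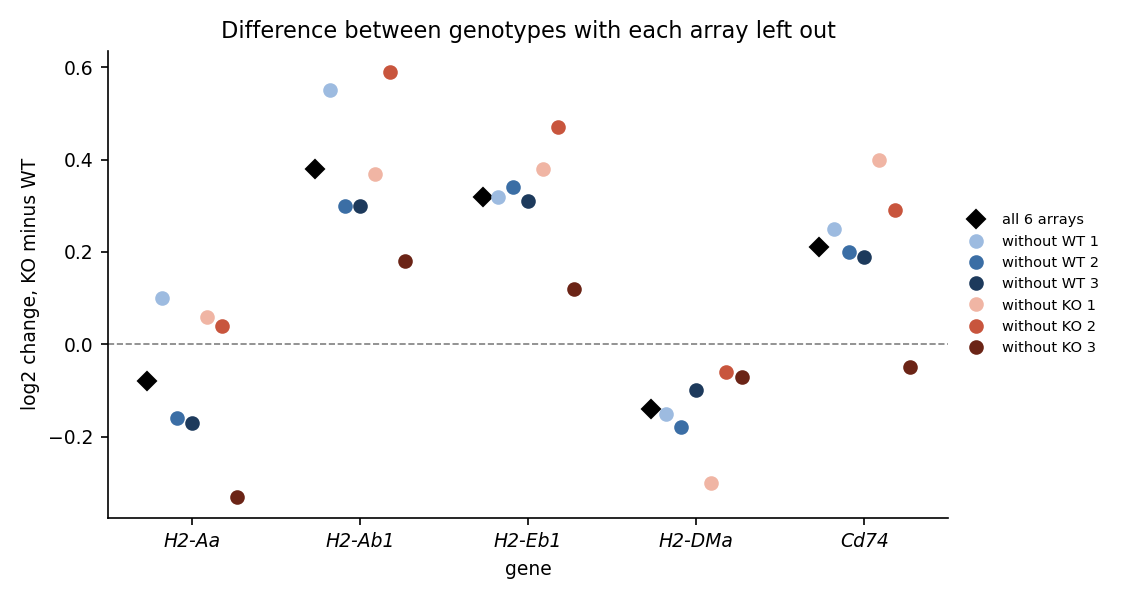
The log2 change, knockout minus wild type (vertical axis), of the 5 class II genes above the limit for dim signal (horizontal axis), with all 6 arrays (black diamond) and with each array left out (circles). Without knockout replicate 3 the change of Cd74 turns from 0.21 to -0.05 and that of H2-Eb1 drops from 0.32 to 0.12, while H2-Aa takes either sign according to the array left out.

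The other genes of the class II pathway gave the same count of calls. Of 28 on the list, 25 were above the limit and 0 passed at a limma adjusted p under 0.05. At an unadjusted p under 0.05 there were 3 higher and 2 lower in the knockout, where the shares over all genes were 7.36% and 2.18%. The median log2 change of the 25 was 0.03, against 0.045 for all genes. Wild type and knockout were separate in 8 of them, or 32%, against 15.6% of all genes. Without knockout replicate 3 the 5 genes at an unadjusted p under 0.05 became 1, as they did without wild-type replicate 1 or wild-type replicate 2. They became 3 without wild-type replicate 3. Over all genes, in the same order, the 1190 at such a p became 736, 1131, 745 and 1017.

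Among the other chains and peptide exchange factors, H2-DMb2, a beta chain of H2-DM, read 4.26, 4.25 and 4.42 in wild type and 4.56, 4.45 and 4.74 in the knockout. Every knockout pool was above every wild-type pool, with a log2 change of 0.27 (SE 0.10, limma adjusted p = 0.467). Its other probe set stood at -0.05 (SE 0.10). The second beta chain gene, H2-DMb1, was dim, with 2.62, 2.26 and 2.18 in wild type and 2.15, 2.47 and 2.94 in the knockout, the same pool being highest. H2-Oa, part of the inhibitor of H2-DM found in B cells, stood at 0.03 (SE 0.10), and its partner H2-Ob was dim.

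The list of lysosomal peptide supply holds cathepsins and Lgmn, which cut the invariant chain and antigen, the reductase gene Ifi30 and the membrane glycoprotein genes Lamp1 and Lamp2. The knockout mean was higher in 9 of its 10 genes, against 63.4% of all genes. Among these 9, Lamp1 and Lamp2 were nearly equal between genotypes, at log2 changes of 0.02 and 0.03. Of the 10, 2 were higher in the knockout at an unadjusted p under 0.05, against 7.36% of all genes. Ifi30, which encodes the thiol reductase GILT that unfolds antigen, read 6.76, 6.66 and 6.71 in wild type and 6.94, 7.02 and 7.28 in the knockout. The pools were separate by genotype, with a log2 change of 0.37 (SE 0.11, limma adjusted p = 0.347). Lgmn, an asparaginyl endopeptidase, read 5.69, 5.73 and 5.71 in wild type and 5.74, 6.21 and 6.50 in the knockout, a change of 0.44 (SE 0.17, limma adjusted p = 0.473). Ctss, the cathepsin that makes the last cuts in the invariant chain of antigen-presenting cells, stood at 0.09 (SE 0.13), with knockout replicate 3 highest at 8.68.

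Of 7 genes of factors that bind the promoter boxes, 2 had a higher mean in the knockout, against 63.4% of all genes, and 5 a lower one. Among these 5, Nfyc was nearly equal between genotypes, at 0.997-fold. Nfyb, a subunit of the Y box factor NF-Y, read 6.55, 6.47 and 6.20 in wild type and 6.09, 6.18 and 5.96 in the knockout. All knockout pools were below all wild-type pools, at a log2 change of -0.33 (SE 0.12, limma adjusted p = 0.425), and its other probe set gave -0.23 (SE 0.11). Creb1, which can bind the X2 part of the X box, stood at -0.27 (SE 0.12, limma adjusted p = 0.511), with other probe sets above the limit at -0.19 and -0.06. Of the genes of surface turnover and costimulation, Marchf1, a ubiquitin ligase that removes class II from the surface, stood at -0.14 (SE 0.10), Cd80 at 0.05 (SE 0.10), and Cd86 was dim.

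**Figure D3:**
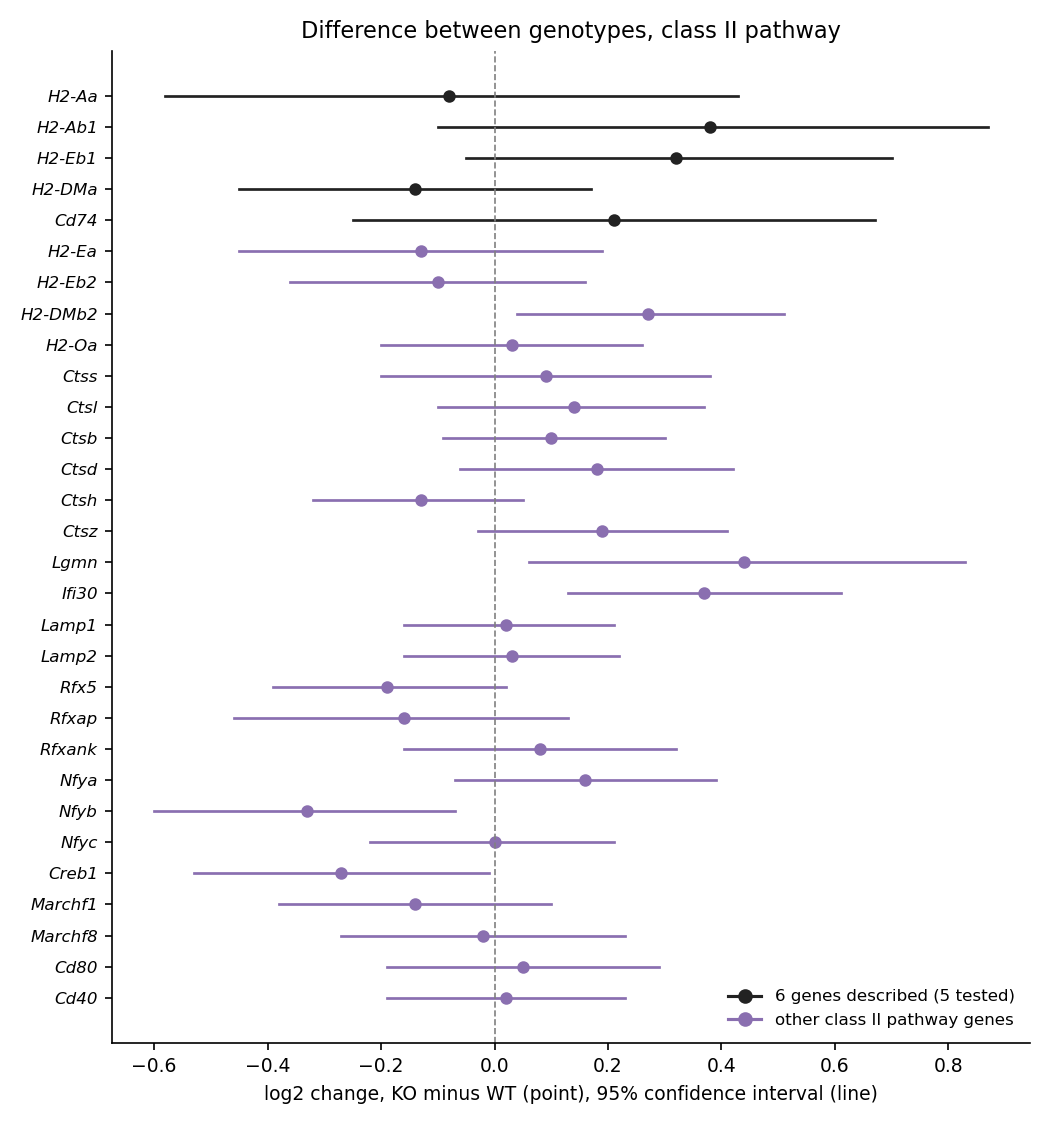
The log2 change, knockout minus wild type (horizontal axis, points), with its 95% confidence interval (lines) for the 5 class II genes tested (black) and 25 other genes of the pathway (purple). The intervals of the 5 genes include 0; among the other genes those of Ifi30, Lgmn and H2-DMb2 lie above 0 and those of Nfyb and Creb1 below it, before adjustment over all genes.

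MHC class I genes, which present cytosolic peptides and are made by nearly all cells, were examined beside class II. Of 17 on the list 14 were tested and 0 passed the limma test, with a median log2 change of 0.05. An unadjusted p under 0.05 was found in 0 of the 14, against 9.55% of all genes. Knockout replicate 3 was the highest array in 10 of the 14, against 27.8% of all genes, though by less than in class II. Its median distance from the other knockout pools was 0.16 here, 0.61 over the 5 class II genes and 0.04 over all genes. H2-K1, a classical class I heavy chain whose probes can match its close relatives, read 10.46, 10.57 and 10.75 in the knockout and between 10.50 and 10.53 in wild type. The 2 with the smallest p, H2-M3 and the immunoproteasome subunit Psmb10, had log2 changes of 0.21 (SE 0.10) and 0.25 (SE 0.13) and limma adjusted p-values of 0.529 and 0.578.

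Interferon gamma is the main inducer of Ciita, and its own transcript was dim on all arrays. Of 19 genes of its axis 15 were tested and 0 passed; 4 were higher in the knockout at an unadjusted limma p under 0.05 and 0 lower, against 7.36% and 2.18% of all genes. These were Il18, a cytokine that induces interferon gamma, at 0.54 (SE 0.18), the receptor chain Ifngr1 at 0.45 (SE 0.14), and the factors Irf2 at 0.26 (SE 0.11) and Irf8 at 0.46 (SE 0.19). Adjusted by limma over all genes, p was between 0.388 and 0.511, and another probe set of Irf8 stood at -0.03 (SE 0.13). The kinase Jak1 had a log2 change of 0.20 (SE 0.10), while its other probe sets gave 0.15 (SE 0.13) and -0.32 (SE 0.15). The 4 became 1 without knockout replicate 3 and 2 without wild-type replicate 2 or 3. Over all genes the 1190 at an unadjusted p under 0.05 became 736, 745 and 1017 in these fits.

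Among the 10 interferon factors and targets tested, knockout replicate 3 was the highest array in 8, against 27.8% of all genes. The others were Iigp1, highest in wild-type replicate 1, and Irgm1, highest in wild-type replicate 3. Cxcl9, an interferon gamma-induced chemokine, read 6.44, 6.18 and 6.08 in wild type and 6.49, 6.29 and 7.07 in the knockout. Igtp, an interferon-induced GTPase, read 6.80, 6.80 and 6.94 in wild type and 6.96, 6.77 and 7.34 in the knockout. Both therefore had their highest value in the pool that was highest for H2-Aa, H2-Ab1, H2-Eb1 and Cd74; Cxcl9 and Igtp were named after their values were seen.

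Markers of cells that carry class II moved in part with this pool. The 5 markers of all leukocytes were highest in knockout replicate 3 in 5 of 5, against 27.8% of all genes. Their mean centred log2 value was 0.55 there, 0.19 and -0.25 in the other knockout pools and -0.25 to -0.03 in wild type. Cd53 had a log2 change of 0.52 (SE 0.17), Coro1a of 0.51 (SE 0.23) and Cd52 of 0.48 (SE 0.21), with limma adjusted p-values between 0.39 and 0.527. Kupffer cell and macrophage markers had a higher knockout mean in 14 of 14 genes, with list values of -0.24, 0.37 and 0.46 in knockout replicates 1, 2 and 3 and -0.30 to -0.12 in wild type. In 10 of the 14, or 71.4%, knockout replicate 3 was the highest array, against 27.8% of all genes. By the list value knockout replicate 2 stood near replicate 3 for these markers, whereas for the 5 class II genes the pools stood at -0.18 and 0.41. Marco, a scavenger receptor of Kupffer cells, was not among the 10 and was highest in replicate 2, at 6.29 against 5.39 in replicate 3. Its range over the knockout pools, 2.49, was the widest of the 14. Of the 14, 6 were higher at an unadjusted p under 0.05, against 7.36% of all genes. Without knockout replicate 3, 12 of the 14 had a higher knockout mean and 1 had such a p. It was found in 2 without knockout replicate 2 and in 13 without knockout replicate 1. Over all genes, in the same order, the 1190 at an unadjusted p under 0.05 in either direction became 736, 1077 and 2012. Leukocyte markers were higher in 3 of 5 without knockout replicate 3, and likewise without knockout replicate 2. Adgre1 had a log2 change of 0.64 (SE 0.12), Mpeg1 of 0.45 (SE 0.16) and Cd5l of 0.35 (SE 0.13), with limma adjusted p-values from 0.143 to 0.454.

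Dendritic cell markers had list values of -0.11 to 0.10 in the knockout and -0.10 to 0.10 in wild type. Of 10, 6 were tested and Xcr1 was dim; Cd209a stood at -0.22 (SE 0.09), Flt3 at 0.25 (SE 0.13) and Cd24a at 0.33 (SE 0.26). Of 10 B cell markers 4 were tested and 5, Pax5 among them, were dim. The 4 gave 0.23 in knockout replicate 3, -0.14 and -0.02 in the other knockout pools and -0.04 to 0.01 in wild type. Ms4a1, which encodes CD20, read 2.85, 2.76 and 2.96 in wild type and 3.38, 2.85 and 3.44 in the knockout, a log2 change of 0.37 (SE 0.16). Jchain, of plasma cells, stood at -0.35 (SE 0.16) and Cd79a at 0.08 (SE 0.11).

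Of 6 monocyte markers 2 were tested, Plac8 at 0.52 (SE 0.18) and Ccr2 at 0.22 (SE 0.09). Sinusoidal endothelial markers had a higher knockout mean in 9 of 10, with list values of -0.03, 0.22 and 0.36 in the knockout pools and -0.38 to 0.02 in wild type; Lyve1 stood at 1.29 (SE 0.19, limma adjusted p = 0.0743), Mrc1 at 0.41 (SE 0.12) and Ptprb at 0.49 (SE 0.14). T cell markers gave -0.06 to 0.12 in the knockout and -0.12 to 0.07 in wild type, with Thy1 at -0.38 (SE 0.14), Cd4 at -0.21 (SE 0.09) and Cd3e at 0.16 (SE 0.09). Hepatocyte markers stayed between -0.04 and 0.05 on every array, with Tat at 0.22 (SE 0.13), Fah at 0.13 (SE 0.09) and Ttr at -0.04 (SE 0.08). Across these marker lists 0 of 56 genes tested passed the limma test, and 15 were higher and 2 lower at an unadjusted p under 0.05, where the shares over all genes were 7.36% and 2.18%. Without knockout replicate 1, 1 sinusoidal endothelial marker passed.

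Measures of RNA quality also differed between pools, and the 18S control signal differed between genotypes. For the Actb and Gapdh controls, the signal at the 5′ end less that at the 3′ end, a log2 difference, was -0.65 in knockout replicate 3, -0.70 in replicate 2 and -1.31 in replicate 1, and between -0.96 and -0.78 in wild type. The 5′ probe set of 18S ribosomal RNA read 5.61 in knockout replicate 3, 6.06 and 6.71 in the other knockout pools and 8.12 to 8.80 in wild type. Its middle probe set read 5.74 to 6.59 in the knockout and 7.92 to 8.14 in wild type. The 3′ probe set read 6.67 to 6.89 and 7.45 to 7.73. The 18S difference cannot be told apart from the genotype. The part of leukocyte content and of RNA quality in the class II values was not tested.

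**Figure D4:**
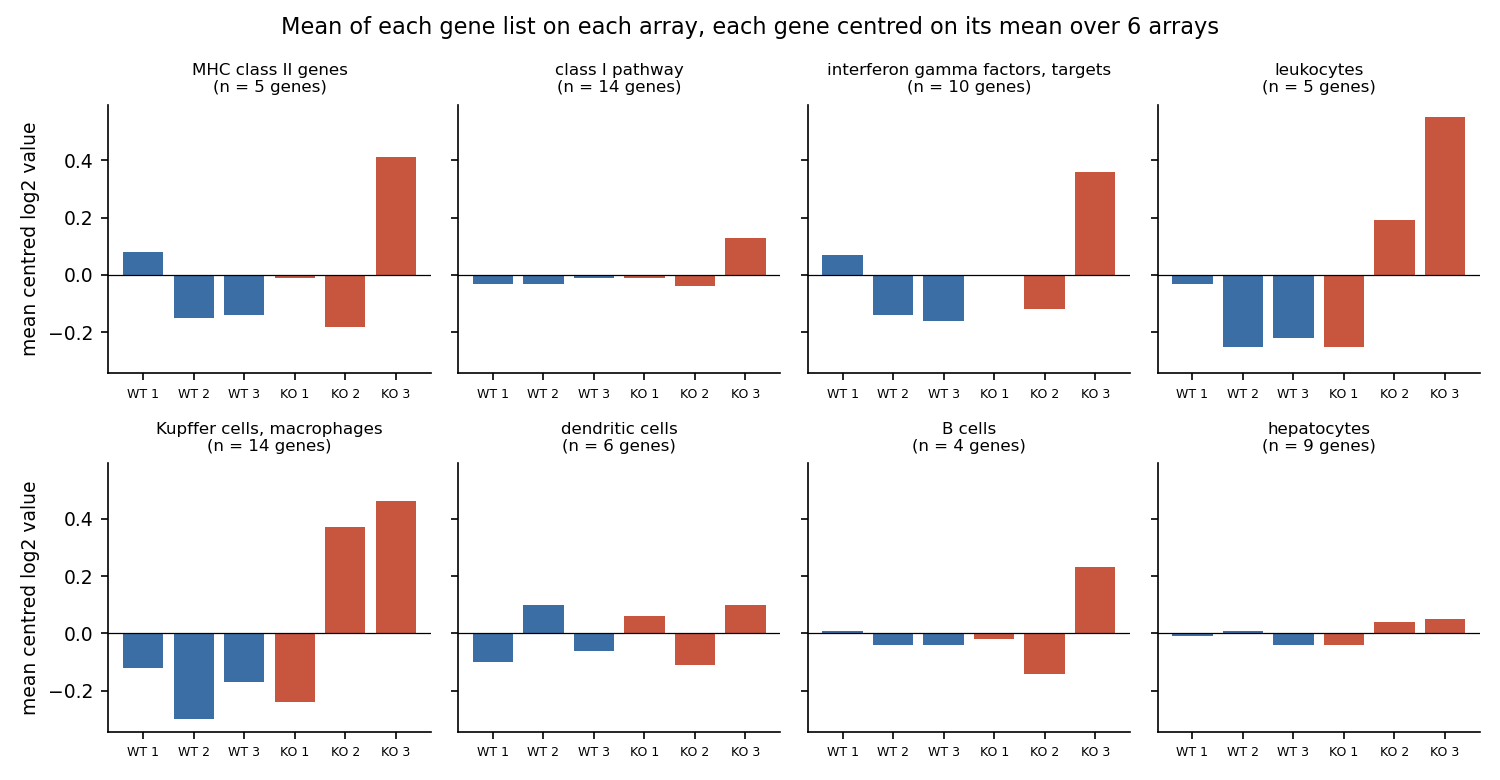
The mean of each gene list on each array (bars; each gene is centred on its own mean over the 6 arrays, in log2 units) for class II genes, class I and interferon genes and cell markers, blue for wild type and red for the knockout. Knockout replicate 3 is highest for class II genes at 0.41, for leukocyte markers at 0.55, for Kupffer cell markers at 0.46 and for interferon factors and targets at 0.36. Knockout replicate 2 is high for Kupffer cell markers at 0.37 and low for class II genes at -0.18.

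The genes whose course over the 6 arrays lay closest to the mean course of the 5 class II genes were sought by the root mean square difference of centred log2 values. The 6 closest were Dok3 and Zfp532 at 0.042, Pcdh12 at 0.054, Atp2a3 at 0.059, Dcakd at 0.061 and Ctss at 0.065. The median over all genes was 0.223, and the class II genes themselves ranged from 0.127 for H2-Eb1 to 0.308 for H2-DMa. Ctss belongs to the class II pathway, Dok3 is an adaptor of myeloid and B cells, and Pcdh12 is an endothelial protocadherin. In all 6 the highest array was knockout replicate 3, and their log2 changes between genotypes lay between 0.07 and 0.12. Both traits follow from the selection, since the mean course of the class II genes peaked on that array, at 0.41. The list is a ranking over 6 arrays and was not tested.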

How the data were processed

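Liver RNA (250 ng) was amplified, biotin-labelled and read on Affymetrix 3′ expression arrays, per the labels' protocols. The deposited values are log2 RMA values, which the authors made with affy, RMA and limma per the submitters' processing notes; no version or build is given there. RMA subtracts background, equalises array distributions and summarises probes, so a shift of most genes together would be reduced. Array medians were 2.98 to 3.04.

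Of 45141 probe sets, 28898 had 1 gene symbol, 551 several and 15588 others none, and 104 were controls. Each gene was represented by its probe set of highest mean over 6 arrays. A gene had to exceed the 40th percentile of the means of all probe sets, which left 12466. Genotypes were compared with limma 3.58.1 in R 4.3.3 (lmFit and eBayes, two-sided) and Benjamini-Hochberg adjustment over all genes; the test was checked on simulated data. With 3 arrays on each side, the smallest p of an exact permutation test is 0.1. The number of arrays limits the precision.

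The named genes were the 6 members, the 2 of smallest p in each pathway role, the 3 of smallest p in each marker list and the 6 closest in course; others named (among them H2-Ea, H2-DMb1, H2-Oa, Ctss, H2-K1, Cxcl9, Igtp, Marco) were chosen after their values were seen. Members and lists were chosen with earlier results of these data known. Alternatives were other normalizations, filters and variance models, weighting of arrays, averaging a gene's probe sets, every probe set on its own, a replicate block, leaving out each array, and adjusted p under 0.10; marker counts without each array were added after seeing the data. Some genes of the lists, 8 cell markers among them, are not analysed here. Figures were drawn with matplotlib 3.10.9.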

Additional observations from a re-analysis of the deposited data

How the results depend on the processing

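None of the 5 class II genes passed at its threshold under any of the 17 alternatives, and H2-Ab1 and H2-Eb1 kept a higher knockout mean in all of them, between 0.15 and 0.59 and between 0.12 and 0.47 on the log2 scale. H2-Aa turned to 0.05 with array weights and to 0.16 with the mean of all probe sets, and H2-DMa to 0.05 with that mean. With 1 array left out, H2-Aa ranged from -0.33 to 0.10, Cd74 from -0.05 (without knockout replicate 3) to 0.40, and members with an unadjusted limma p under 0.05 from 0 to 2 (2 without knockout replicate 2). H2-Aa was above 0 without wild-type replicate 1, knockout replicate 1 or knockout replicate 2. Over all genes, the 5 calls became 8 after renewed quantile normalization, 3 with the filter at the 60th percentile, 29 with a variance trend, 50 with array weights, 3 with the mean of all probe sets, 13 with every probe set on its own and 30 at adjusted p under 0.10, and 1 to 17 with an array left out (17 without knockout replicate 1, and 1 or 2 without any of the others). The 1190 genes at an unadjusted p under 0.05 became 2147 with array weights, 2567 with every probe set on its own and 736 (without knockout replicate 3) to 2012 (without knockout replicate 1) with an array left out, 745 being the count without wild-type replicate 2. The cause was not tested. Equal replicate numbers did not pair the arrays, with correlations of -0.15, 0.03 and -0.01; with the replicate block 2 genes were called and 0 class II genes, H2-Ab1 standing at 0.38 and H2-Eb1 at 0.32 (limma adjusted p = 0.657 for both, and 0.311 to 0.962 over the alternatives of these 2 genes). In a leave-one-out fit the smaller genotype had 2 arrays. No class II, class I or interferon gamma list gene was called under any alternative.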

Other observations

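Genes of the MHC region beyond the lists above, taken up after their values were seen, include nonclassical class I genes. Of 11 further H2 genes named on the array, 7 were above the limit for dim signal, 4 of them with a higher and the others with a lower mean in the knockout. Knockout replicate 3 was the highest array in 1 of the 7, H2-Bl, against 4 of the 5 class II genes and 27.8% of all genes. It was also the highest for H2-K1, H2-D1, H2-T23 and H2-M3 of the class I list, and for 10 of the 14 genes tested there. Differences between these counts were not tested. H2-Q5 read 4.31, 4.24 and 4.29 in wild type and 4.10, 3.99 and 3.94 in the knockout, a log2 change of -0.27 (SE 0.09, limma adjusted p = 0.374). H2-Q10, a class I gene secreted by hepatocytes, read 10.23, 10.41 and 10.57 in wild type and 10.44, 10.46 and 10.46 in the knockout, a change of 0.05 (SE 0.10).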
